A study of Mus musculus with 10 samples.

Results

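The 10 genes described here are mouse heat shock proteins, their cochaperones and the transcription factor that controls them: Hsf1, Hspa1a, Hspa1b, Hspa8, Hsph1, Dnajb1, Hsp90aa1, Hspe1, Hspd1 and Bag3. They were chosen by name, with earlier results of these data known. All 10 were found among the 53465 genes counted in each of 10 RNA-seq libraries of CD8 T cells. Together they took 0.234% to 0.383% of a library's counts.

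The cells were OT-I transgenic CD8 T cells of C57BL/6 mice, which carry a single T cell receptor against an ovalbumin peptide, taken from spleen and peripheral lymph nodes. All of them were activated for 3 days with the peptide and interleukin-2 (100 U/ml) in 25 mM glucose, then moved to 1 mM glucose, and all were restimulated for 4 h with PMA and ionomycin before RNA was taken. The 4 groups were d9 acetate (5 days in 1 mM glucose, 5 mM sodium acetate for the last 1 day, n = 3), d9 no acetate (5 days in 1 mM glucose, n = 3), d5 acetate (1 day in 1 mM glucose with 5 mM acetate, n = 2) and d5 no acetate (1 day in 1 mM glucose, n = 2). The day in a group's name is the labelled one and is not the sum of the days stated for activation and restriction. None of the 10 libraries is from cells kept in 25 mM glucose or left without restimulation. The labels do not say whether libraries of a group came from separate mice or cultures, so a p-value here refers to the spread between libraries, which may be technical. The question addressed is whether acetate changes gene expression under glucose restriction, at each of the 2 days.

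Libraries held 22966098 to 24659226 counts at d9 and 16588023 to 17971480 at d5. CD8 T cell markers were high in every library, with Cd8a at 306 to 711 CPM (a gene's counts as a rate of the library's total, which was scaled by TMM). Markers of other cells were low in sum for B cells (0.717 to 1.78 CPM at d9, 1.16 to 4.58 CPM at d5) and for monocytes (6.14 to 10.4 CPM at d9, 4.68 to 12.4 CPM at d5). The CD4 T cell list came to 131.5 to 164 CPM at d9 and 106.1 to 155.5 CPM at d5, nearly all of it Zbtb7b, with Cd4 itself at 0.234 to 1.7 CPM. Marker sums of dendritic cells (67.8 to 99.6 CPM at d9, 19.4 to 32.4 CPM at d5) and of NK cells (9.75 to 27.8 CPM at d9, 1.99 to 7.84 CPM at d5) were higher at d9. The sum of erythroid and stromal cells (29.3 to 52.9 CPM at d9, 13.96 to 31.9 CPM at d5) reached higher values at d9, but the days overlapped. Most of these 3 sums came from Zbtb46, Klrb1c and Pecam1, while Siglech, Hba-a1 and Col3a1 were at 0 in all 10 libraries. Mitochondrially encoded mRNA was 0.299% to 0.427% of counts at d9 and 0.684% to 1.00% at d5. Several of these values move with the day, and some also with acetate (given beside the acetate results), and their part in the differences below was not tested. In bulk libraries fewer cells of a type and less RNA per cell cannot be told apart.

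Heat shock proteins are molecular chaperones that bind unfolded or newly made proteins and help them fold. In unstressed cells HSP70 and HSP90 hold the transcription factor HSF1 inactive. When unfolded proteins take up these chaperones, HSF1 is released, forms trimers and binds heat shock elements, repeated GAA units in alternating orientation, at the promoters of chaperone genes. Lymphocytes make large amounts of constitutive chaperones when they grow and divide after activation, and also express the inducible ones after heat or proteotoxic stress.

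The promoters of 7 of the 10 genes were found in a RefSeq table of GRCm38.p6 sequences (250 bases before to 50 after a transcription start), which did not list Hsf1, Hspa8 and Hsp90aa1. Each window was searched on both strands for a pair of units, GAANNTTC or TTCNNGAA, each of which is its own reverse complement, and for the three-unit element, in which such a pair is followed after any 2 bases by a further unit in the opposite orientation. Every three-unit element therefore contains a pair of each kind. A pair was found in 15.1% of all 32851 promoter windows of the same length, and a three-unit element in 0.603%. Stretches of 280 bases are shown for Hspe1, Hsph1, Hspa1a and Hspa1b. The first lies at the starts of a divergent gene pair, the second holds separated elements and the last 2 are near copies of each other. Capitals mark the matches.
Hspe1, chr1:55087898-55088177, plus strand: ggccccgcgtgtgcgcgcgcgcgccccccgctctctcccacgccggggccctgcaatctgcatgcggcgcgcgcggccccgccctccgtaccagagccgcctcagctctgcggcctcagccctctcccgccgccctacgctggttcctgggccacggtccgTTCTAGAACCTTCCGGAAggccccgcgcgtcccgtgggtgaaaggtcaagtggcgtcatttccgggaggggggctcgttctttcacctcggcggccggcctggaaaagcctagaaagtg
Hsph1, chr5:149636286-149636565, minus strand: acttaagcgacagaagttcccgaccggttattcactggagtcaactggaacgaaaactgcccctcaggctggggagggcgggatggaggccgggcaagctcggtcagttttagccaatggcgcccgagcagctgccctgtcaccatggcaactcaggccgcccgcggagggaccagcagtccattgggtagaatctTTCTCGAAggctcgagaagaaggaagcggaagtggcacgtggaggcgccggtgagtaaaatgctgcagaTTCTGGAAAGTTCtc
Hspa1a, chr17:34972127-34972406, minus strand: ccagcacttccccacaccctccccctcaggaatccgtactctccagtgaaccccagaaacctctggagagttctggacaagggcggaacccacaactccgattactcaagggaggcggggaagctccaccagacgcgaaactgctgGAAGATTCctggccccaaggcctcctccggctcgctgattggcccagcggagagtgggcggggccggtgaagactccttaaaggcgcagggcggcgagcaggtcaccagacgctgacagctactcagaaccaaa
Hspa1b, chr17:34959209-34959488, minus strand: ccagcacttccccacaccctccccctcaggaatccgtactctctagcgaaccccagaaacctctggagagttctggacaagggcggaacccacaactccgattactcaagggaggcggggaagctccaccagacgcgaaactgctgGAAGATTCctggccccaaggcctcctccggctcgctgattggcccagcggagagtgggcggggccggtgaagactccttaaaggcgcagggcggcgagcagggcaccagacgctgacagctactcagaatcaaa

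The capitals in the Hspe1 stretch are 3 overlapping pairs, at positions -89 to -72 from its start. Hspd1 lies head to head with it on the other strand, with gene starts 111 bases apart. The same bases lie at positions -144 to -127 of the second of 2 listed Hspd1 starts, and the window of the first held no match. Hsph1 has a pair at -54 to -47 and a three-unit element at 16 to 28 after the start shown. Hspa1a and Hspa1b each have 1 pair, at -104 to -97, and their 300-base windows differ at 4 bases. Bag3 has 1 pair, at 43 to 50 after its start, and these letters were not found in the 2 Dnajb1 windows. A match is a description of the sequence and not a measured binding site.

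Levels of the 10 genes were set against each other per length, as CPM per kb of exon, with all annotated exons of a gene merged. The merged length can exceed that of the transcripts made, to a degree that differs between genes. Orders and ratios between genes are therefore approximate. On that scale Hspa8, the constitutive cytosolic HSP70, stood highest, with a median of 490.4 CPM per kb over the 10 libraries. The mitochondrial chaperonin genes Hspd1 (128.0 CPM per kb) and Hspe1 (126.8 CPM per kb) came next. Dnajb1 (23.6), Hsp90aa1 (20.4), Hsph1 (19.1), Hsf1 (11.1) and Bag3 (6.07 CPM per kb) followed, and the stress-inducible HSP70 genes Hspa1b (0.166) and Hspa1a (0.106 CPM per kb) were lowest. Ranges over the libraries did not overlap between neighbours at 3 steps of this order, from Hspa8 to Hspd1, from Hspe1 to Dnajb1 and from Bag3 to Hspa1b. The other neighbours overlapped. Hspa1a had only 2 to 54 counts in a library and Hspa1b 5 to 81, so differences in them are measured with a large counting error. All 10 genes passed the filter on low counts, but Hspa1a no longer passed it without d9 acetate replicate 3 or without d9 no acetate replicate 2.

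**Figure D1:**
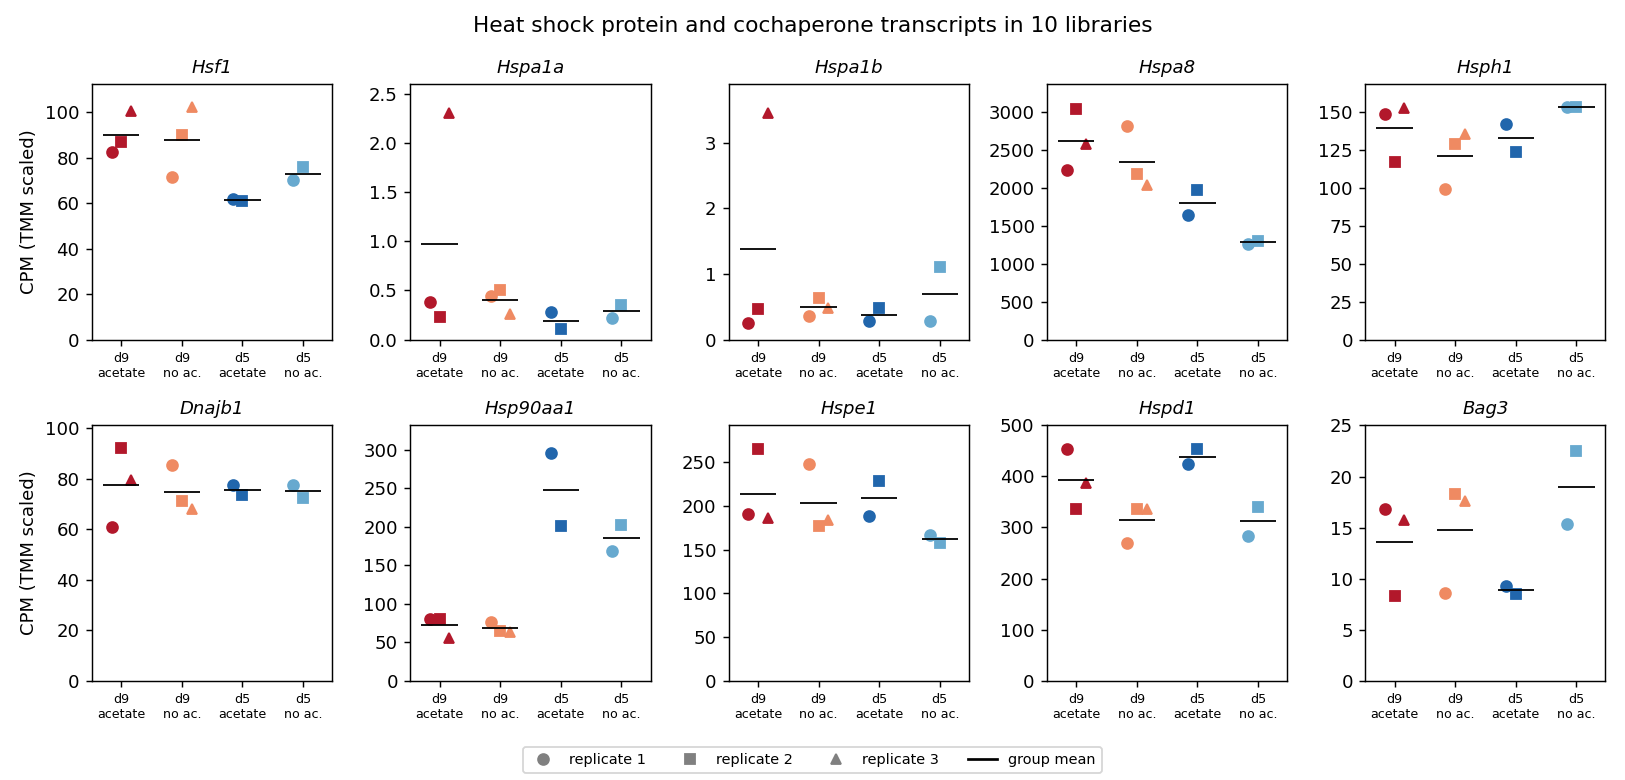
TMM-scaled CPM (y axis, from 0, a separate scale per gene) of the 10 genes in d9 acetate, d9 no acetate, d5 acetate and d5 no acetate libraries; symbols are replicates and black lines group means. Hsp90aa1 lies lower in all 6 d9 libraries than in all 4 d5 libraries, Hspa8 lies higher in all 6, and Hspa1a and Hspa1b have 1 high library, d9 acetate replicate 3.

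The 2 genes that passed the test between d9 and d5 both with and without acetate changed in opposite directions. Hsp90aa1, the inducible cytosolic HSP90, fell at d9 to about 0.291 of its d5 level with acetate and 0.369 of it without acetate, while Hspa8 rose by 1.45-fold with acetate and 1.83-fold without. Hsf1 rose by 1.47-fold with acetate. In the test across all 13182 genes (edgeR quasi-likelihood test, Benjamini-Hochberg adjusted p under 0.05) 3 of the 10 genes passed with acetate, where 41.6% of all genes tested passed (18.5% higher at d9 and 23.1% lower). Without acetate 2 of the 10 passed, against 37.1% of all genes tested (15.9% higher and 21.2% lower). The counts are therefore not above the background of these comparisons. The median log2 difference of the 10 genes was 0.30 with acetate and 0.00 without, against -0.01 over all genes tested in each. The 2 days also differ in total time in culture and in depth, which cannot be told apart from the length of glucose restriction.

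Acetate changed none of the 10 genes past that threshold at either day. At d9, 0 of the 10 passed in edgeR, limma-voom and DESeq2. An unadjusted edgeR p under 0.05 was found for 1 of them, Hspd1, and for 2026 of all 13182 genes tested. Of all genes tested 0.0303% passed the adjusted threshold there. At d5, 0 of the 10 passed in the same 3 tools, where 1.52% of all genes tested passed in edgeR (0.66% higher with acetate and 0.865% lower). An unadjusted edgeR p under 0.05 was found for 3 of the 10 (Hspa8, Hspd1 and Bag3) and for 2612 of all 13182 genes tested. The median log2 difference of the 10 genes between acetate and no acetate was 0.12 at d9 and -0.10 at d5, against 0.01 over all genes tested at each day. For the difference of the acetate effects (d9 minus d5), 0 of the 10 passed in the 3 tools, and 0% of all genes passed in edgeR. There 0 of the 10 had an unadjusted edgeR p under 0.05, against 1015 of all 13182 genes tested. In the 4-group fit the d5 comparison rests on 2 libraries against 2. The calls there depend on how the spread is estimated: with only the d5 libraries in the fit, edgeR called 3 of the 10, and 13.9% of all genes tested, against 1.52% in the 4-group fit. Of the 3, Hspa8 and Hspd1 were higher with acetate (5.47% of all genes) and Bag3 was lower (8.45%).

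Several sums of other cells' markers also differed between acetate and no acetate libraries without overlap. At d5 the NK cell sum was 6.89 to 7.84 CPM with acetate and 1.99 to 2.65 CPM without, the B cell sum 3.14 to 4.58 CPM with acetate and 1.16 to 1.52 CPM without, and the dendritic cell sum 31.6 to 32.4 CPM with acetate and 19.4 to 25.6 CPM without. The monocyte sum ran the other way, at 4.68 to 6.56 CPM with acetate and 9.43 to 12.4 CPM without. CD8 and CD4 T cell marker sums and the erythroid and stromal sum were also higher with acetate at d5, as was mitochondrially encoded mRNA, at 0.964% to 1.00% of counts with acetate and 0.684% to 0.736% without. At d9 the NK cell sum was 19.9 to 27.8 CPM with acetate and 9.75 to 14.96 CPM without, the erythroid and stromal sum 46.0 to 52.9 CPM with acetate and 29.3 to 36.6 CPM without, and the monocyte sum 6.14 to 6.74 CPM with acetate and 8.09 to 10.4 CPM without. The part of these differences in the acetate values of the 10 genes and of the lists below was not tested.

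**Figure D2:**
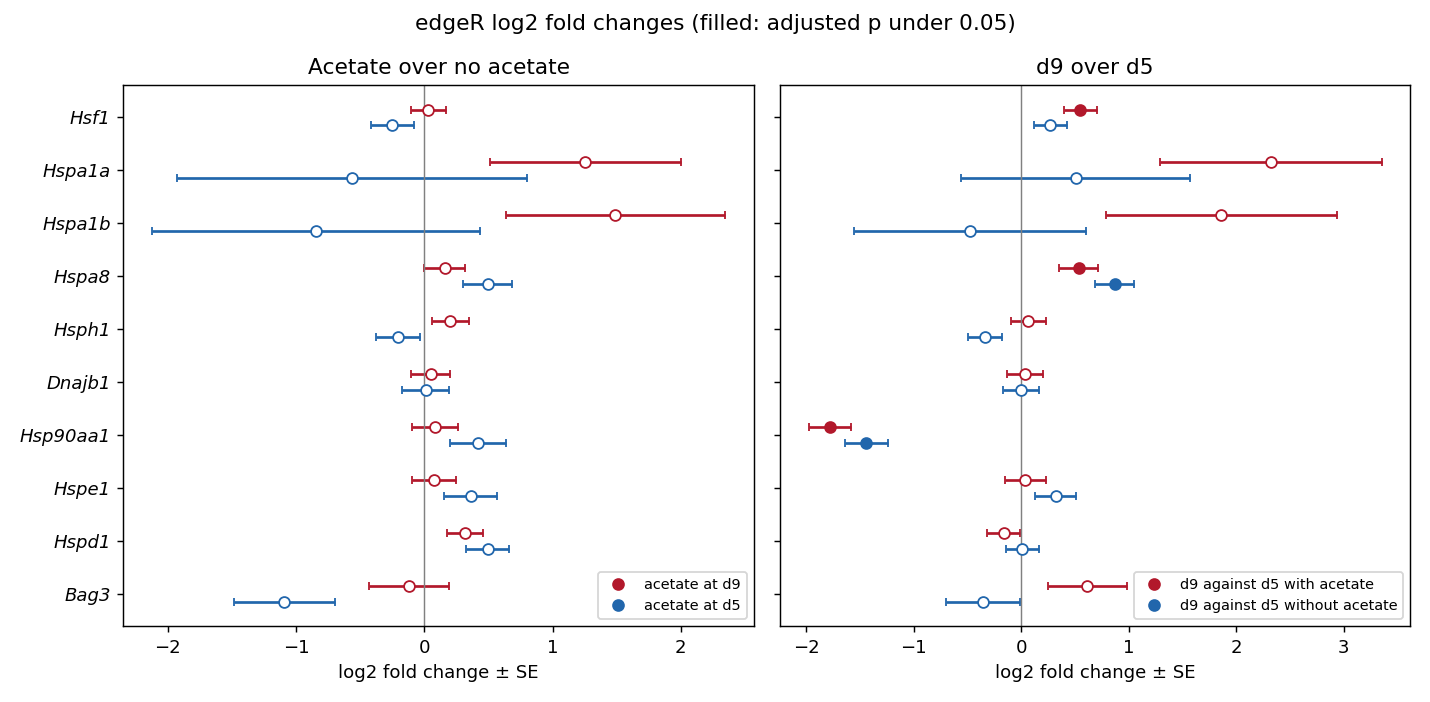
Log2 fold changes from edgeR (x axis) with 1 SE on each side, for acetate over no acetate (left, d9 above d5) and d9 over d5 (right, with acetate above without); filled points have an adjusted p under 0.05. Filled points are seen for Hsf1, Hspa8 and Hsp90aa1 in the day comparisons and for none of the acetate comparisons.

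Hsf1 (ENSMUSG00000022556, chr15:76477422-76501913, plus strand, GRCm38) encodes the heat shock transcription factor itself. It stood at 82.5, 86.8 and 100.4 CPM in the d9 acetate libraries, against 61.8 and 60.9 CPM in d5 acetate. It stood at 71.6, 90.0 and 102.2 CPM in the d9 no acetate libraries, against 70.1 and 75.7 CPM in d5 no acetate. With acetate every d9 library was higher than both d5 libraries, and without acetate the groups overlapped. The log2 difference of d9 over d5 was 0.55 ± 0.15 (SE; edgeR adjusted p = 0.0156) with acetate and 0.27 ± 0.15 (edgeR adjusted p = 0.187) without. The first of these calls was lost without d9 acetate replicate 3 (edgeR adjusted p = 0.0524), without d5 acetate replicate 1 (0.078) and without d5 acetate replicate 2 (0.0842). The second was past the threshold without d9 no acetate replicate 1 (0.42, edgeR adjusted p = 0.0321). Acetate over no acetate gave 0.03 ± 0.14 at d9 (95% interval -0.27 to 0.33) and -0.25 ± 0.17 at d5 (-0.62 to 0.12), and at d5 both acetate libraries were lower than both no acetate libraries.

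Hspa8 (ENSMUSG00000015656, chr9:40800984-40810087, plus strand) encodes HSC70, the constitutive HSP70 that folds new proteins and uncoats clathrin vesicles. Its d9 acetate libraries had 2240, 3039 and 2578 CPM, against 1642 and 1975 CPM in d5 acetate. The d9 no acetate libraries had 2825, 2181 and 2038 CPM, against 1261 and 1307 CPM in d5 no acetate. All 6 d9 libraries were higher than all 4 d5 libraries. The small nucleolar RNA genes Snord14c, Snord14d and Snord14e overlap 262 bases of its exons on the same strand.

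The rise of Hspa8 at d9 was 0.87 ± 0.18 on the log2 scale without acetate (edgeR adjusted p = 0.00371) and stayed past the threshold in all 13 alternatives run, with adjusted p between 1.23e-06 and 0.0395. With acetate it was 0.53 ± 0.18 (edgeR adjusted p = 0.0339). That call was lost without d9 acetate replicate 2 (edgeR adjusted p = 0.061), without d9 acetate replicate 3 (0.0654), without d5 acetate replicate 1 (0.217), without d5 acetate replicate 2 (0.0581) and with the replicate number as a block (0.59, 0.0518). At d5 both acetate libraries were higher than both no acetate libraries, with a log2 difference of 0.49 ± 0.19 (edgeR adjusted p = 0.199). At d9 the groups overlapped, with a difference of 0.16 ± 0.16 (edgeR adjusted p = 0.687). The acetate effect at d9 minus that at d5 was -0.34 ± 0.25 (95% interval -0.89 to 0.21).

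Hspa1a (ENSMUSG00000091971, chr17:34969190-34972156, minus strand) and Hspa1b (ENSMUSG00000090877, chr17:34956436-34959238, minus strand) are neighbouring single-exon genes for the same stress-inducible HSP70, with almost identical promoters, as printed above. Of the 50-base windows of the Hspa1a transcript 58.8% also occur in Hspa1b, and 62.3% the other way round, so the split of reads between them is uncertain. How reads that match both genes were counted is not known, so the levels and their sum may also be too low. Hspa1a also overlaps 564 bases of Gm20481 on the opposite strand, and whether reads were counted by strand was not stated in the labels or processing notes. Summed over both genes, the d9 acetate libraries had 15, 15 and 135 counts and the d9 no acetate libraries 18, 27 and 17. The d5 acetate libraries had 10 and 11 counts, and the d5 no acetate libraries 9 and 25. One library, d9 acetate replicate 3, thus held 5.76 CPM of the sum, while the other 9 libraries held 0.496 to 1.46 CPM.

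That library was high in both genes, with 2.30 CPM of Hspa1a, against 0.379 and 0.229 CPM in the other d9 acetate libraries and 0.261 to 0.508 CPM in d9 no acetate. For Hspa1b it had 3.45 CPM, against 0.253 and 0.458 CPM in the other d9 acetate libraries and 0.358 to 0.635 CPM in d9 no acetate. The groups overlapped. Acetate over no acetate at d9 came to 1.26 ± 0.74 for Hspa1a (edgeR adjusted p = 0.466) and 1.49 ± 0.86 for Hspa1b (0.453), and without d9 acetate replicate 3 the Hspa1b value was -0.47 (edgeR adjusted p = 0.801). The same library had the highest summed level of 18 immediate early genes, at 6944 CPM, against 3982 and 3807 CPM in the other d9 acetate libraries and 2689 to 3825 CPM in d9 no acetate. The part of that difference in the Hspa1a and Hspa1b values was not tested. For Hspa1a, d9 over d5 with acetate was 2.32 ± 1.03 (edgeR adjusted p = 0.0923), which passed the threshold without d9 acetate replicate 2 (2.81, edgeR adjusted p = 0.0269). That call rests on 1 library, since d9 acetate replicate 3 had 54 counts of Hspa1a and replicate 1 had 9, against 5 and 2 in d5 acetate.

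Hsp90aa1 (ENSMUSG00000021270, chr12:110690605-110702728, minus strand) encodes HSP90 alpha, which with its cochaperones matures kinases and receptors and also binds HSF1. It had 80.7, 80.1 and 56.2 CPM in d9 acetate libraries, against 295.8 and 200.5 CPM in d5 acetate. It had 76.3, 64.7 and 64.0 CPM in d9 no acetate libraries, against 168.1 and 202.2 CPM in d5 no acetate. Every d9 library was lower than every d5 library. The log2 difference of d9 over d5 was -1.78 ± 0.20 (edgeR adjusted p = 8.99e-05) with acetate and -1.44 ± 0.20 (edgeR adjusted p = 0.000333) without. Both calls held in all 13 alternatives run, with adjusted p of at most 0.00132 with acetate and 0.00639 without. Acetate over no acetate was 0.08 ± 0.18 at d9 (95% interval -0.31 to 0.47) and 0.42 ± 0.22 at d5 (-0.06 to 0.90), and the groups overlapped at both days.

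Hsp90ab1, the constitutive HSP90 beta, did not show the fall. It averaged 4459 ± 449 CPM in d9 acetate and 4112 ± 142 CPM in d5 acetate, and 4173 ± 221 CPM in d9 no acetate and 4142 ± 223 CPM in d5 no acetate (SD, n = 3 at d9 and 2 at d5). Its d9 over d5 log2 difference was 0.12 ± 0.13 with acetate (95% interval -0.17 to 0.40) and 0.01 ± 0.13 without (-0.27 to 0.29), intervals that do not reach the values of Hsp90aa1. Per kb of merged exon, Hspa8 exceeded Hsp90aa1 by 25.4 to 42.0 times in the 6 d9 libraries and by 5.07 to 9.002 times in the 4 d5 libraries.

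Hsph1 (ENSMUSG00000029657, chr5:149614287-149636376, minus strand) encodes HSP110, a nucleotide exchange factor for HSP70. Its d9 acetate libraries had 148.5, 116.7 and 152.5 CPM and its d9 no acetate libraries 98.8, 128.8 and 135.1 CPM. Its d5 acetate libraries had 142.0 and 123.6 CPM and its d5 no acetate libraries 153.3 and 152.8 CPM. Without acetate all 3 d9 libraries were lower than both d5 libraries, but the log2 difference of -0.34 ± 0.16 did not pass (edgeR adjusted p = 0.115). With acetate the days overlapped, at 0.07 ± 0.16. The acetate effects were 0.20 ± 0.14 at d9 and -0.21 ± 0.18 at d5, and at d5 both acetate libraries were lower than both no acetate libraries.

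Dnajb1 (ENSMUSG00000005483, chr8:83608193-83612653, plus strand) encodes HSP40, the J-domain protein that stimulates HSP70 ATPase activity. Of the 10 genes its group means varied least, with 77.5 ± 15.8 CPM in d9 acetate, 74.8 ± 9.19 CPM in d9 no acetate, 75.5 ± 2.67 CPM in d5 acetate and 74.97 ± 3.59 CPM in d5 no acetate (SD). No group pair was free of overlap. The 4 log2 differences between groups lay between 0.00 and 0.05, and the widest 95% interval among them ran from -0.40 to 0.42.

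Bag3 (ENSMUSG00000030847, chr7:128523616-128546981, plus strand) encodes an HSP70 exchange factor that directs clients to autophagy. It had 16.8, 8.34 and 15.7 CPM in d9 acetate libraries and 8.55, 18.2 and 17.6 CPM in d9 no acetate. It had 9.30 and 8.47 CPM in d5 acetate and 15.4 and 22.5 CPM in d5 no acetate. At d5 both acetate libraries were lower, with a fold of 0.469 and a log2 difference of -1.09 ± 0.40, which did not pass (edgeR adjusted p = 0.175). At d9 the acetate effect was -0.12 ± 0.31, and the effect at d9 minus that at d5 was 0.97 ± 0.50 (edgeR adjusted p = 0.7). In each d9 group 1 library was low (8.34 or 8.55 CPM) and the others were at 15.7 CPM or higher.

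The mitochondrial chaperonin is a barrel of HSP60 (Hspd1) closed by a lid of HSP10 (Hspe1), and folds proteins imported into the matrix. Hspd1 (ENSMUSG00000025980, chr1:55077835-55088243, minus strand) and Hspe1 (ENSMUSG00000073676, chr1:55088132-55091307, plus strand) are divergent neighbours and overlap by 112 bases of exon on opposite strands. The matches printed above for Hspe1 lie before only the second of 2 listed Hspd1 starts. Hspd1 had 454.4, 336.1 and 386.5 CPM in d9 acetate libraries, against 269.9, 336.4 and 336.9 CPM in d9 no acetate. It had 424.5 and 452.6 CPM in d5 acetate, against 283.8 and 339.6 CPM in d5 no acetate. The d5 groups did not overlap, and the d9 groups overlapped through d9 acetate replicate 2 alone. The acetate effect on the log2 scale was 0.32 ± 0.14 at d9 (edgeR adjusted p = 0.303) and 0.49 ± 0.17 at d5 (edgeR adjusted p = 0.16), with an effect at d9 minus that at d5 of -0.17 ± 0.22.

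Hspe1 had 190.8, 265.4 and 185.7 CPM in d9 acetate libraries, against 247.8, 177.0 and 184.1 CPM in d9 no acetate. It had 188.2 and 228.8 CPM in d5 acetate, against 167.0 and 157.5 CPM in d5 no acetate. At d5 both acetate libraries were higher, with a log2 difference of 0.36 ± 0.21 (edgeR adjusted p = 0.352), and at d9 the groups overlapped, with 0.08 ± 0.17 (0.882). Without acetate all d9 libraries were higher than both d5 libraries, with a difference of 0.32 ± 0.19 (edgeR adjusted p = 0.209). For Hspd1 the days differed by -0.16 ± 0.15 with acetate and 0.01 ± 0.16 without. Hspa9, the HSP70 of the matrix, averaged 1088 ± 51.6 CPM in d9 acetate and 974.7 ± 18.4 CPM in d9 no acetate, and 1277 ± 7.28 CPM in d5 acetate and 973.1 ± 33.5 CPM in d5 no acetate (SD).

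At d5, then, acetate and no acetate libraries did not overlap for 6 of the 10 genes. Hspa8, Hspe1 and Hspd1 were higher with acetate, as were 29.8% of all genes tested without overlap, and Hsf1, Hsph1 and Bag3 were lower, as were 29.2% of all genes. At d9 none of the 10 was free of overlap, while 9.9% of all genes tested were higher with acetate and 8.79% lower without overlap. Between days with acetate, Hsf1 and Hspa8 were higher at d9 without overlap (29.1% of all genes) and Hsp90aa1 lower (33.4%). Between days without acetate, Hspa8 and Hspe1 were higher (29.7%) and Hsph1 and Hsp90aa1 lower (33.4%).

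Among the d9 libraries, part of the spread of the genes described here followed a split that crossed the acetate groups. In d9 acetate replicate 2 and d9 no acetate replicate 1, ribosomal protein genes took 15.1% and 15.45% of counts, against 11.2% to 12.7% in the other 4 d9 libraries. Hspa8 stood at 3039 and 2825 CPM in these 2 libraries and at 2038 to 2578 CPM in the other 4. Hspe1 stood at 265.4 and 247.8 CPM there, against 177.0 to 190.8 CPM, and Dnajb1 at 92.2 and 85.3 CPM, against 60.9 to 79.4 CPM. Hsph1 (116.7 and 98.8 CPM, against 128.8 to 152.5 CPM), Hspd1 (336.1 and 269.9 CPM, against 336.4 to 454.4 CPM) and Bag3 (8.34 and 8.55 CPM, against 15.7 to 18.2 CPM) were lower in both. The remaining 4 genes overlapped. The part of the ribosomal protein share in this split was not tested. The share of all genes tested that set these 2 libraries apart from the other 4 was not computed. Whether the split is more frequent among the genes described here than among all genes was therefore not tested.

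Hspe1 and Hspd1, which are divergent neighbours, went in opposite directions in these libraries. Per kb of merged exon, Hspe1 was 1.42 times Hspd1 in d9 acetate replicate 2 and 1.65 times in d9 no acetate replicate 1, against 0.753 to 1.05 times in the other 8 libraries. With group means removed, log2 CPM over the 10 libraries correlated at 0.90 between Hspa8 and Hspe1, 0.80 between Hspa8 and Dnajb1 and 0.91 between Hsph1 and Bag3, and at -0.93 between Hspa8 and Hsph1 and -0.97 between Hspe1 and Hsph1. Hspd1 and Hspe1 were at -0.74. These coefficients describe 10 libraries in which the 2 named above and depth are shared by every gene. Without those 2 libraries, 5 of the 10 genes passed for d9 over d5 with acetate, where 51.5% of all genes tested passed (25% higher and 26.4% lower). Bag3 (0.87) was added to the 3 called with all libraries, and so was Hspa1a (2.77), whose high value stood in d9 acetate replicate 3 alone. Without acetate 3 of the 10 passed (Hsf1 at 0.38 in addition), against 46% of all genes tested (20.4% higher and 25.6% lower). Both counts are near or below those shares. In the same fit 4 of the 10 passed for acetate at d5, against 16.7% of all genes tested: Hspa8 (0.50), Hspe1 (0.36) and Hspd1 (0.49) were higher (7.05% of all genes) and Bag3 (-1.09) lower (9.66%). No d5 library differed in that fit, and for Hspa8 the difference went from 0.494 to 0.498 while its SE fell from 0.193 to 0.122. The 2 libraries stood apart within their d9 groups, so leaving them out lowers the spread that all groups share. The calls gained in that fit are therefore not separate evidence.

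**Figure D3:**
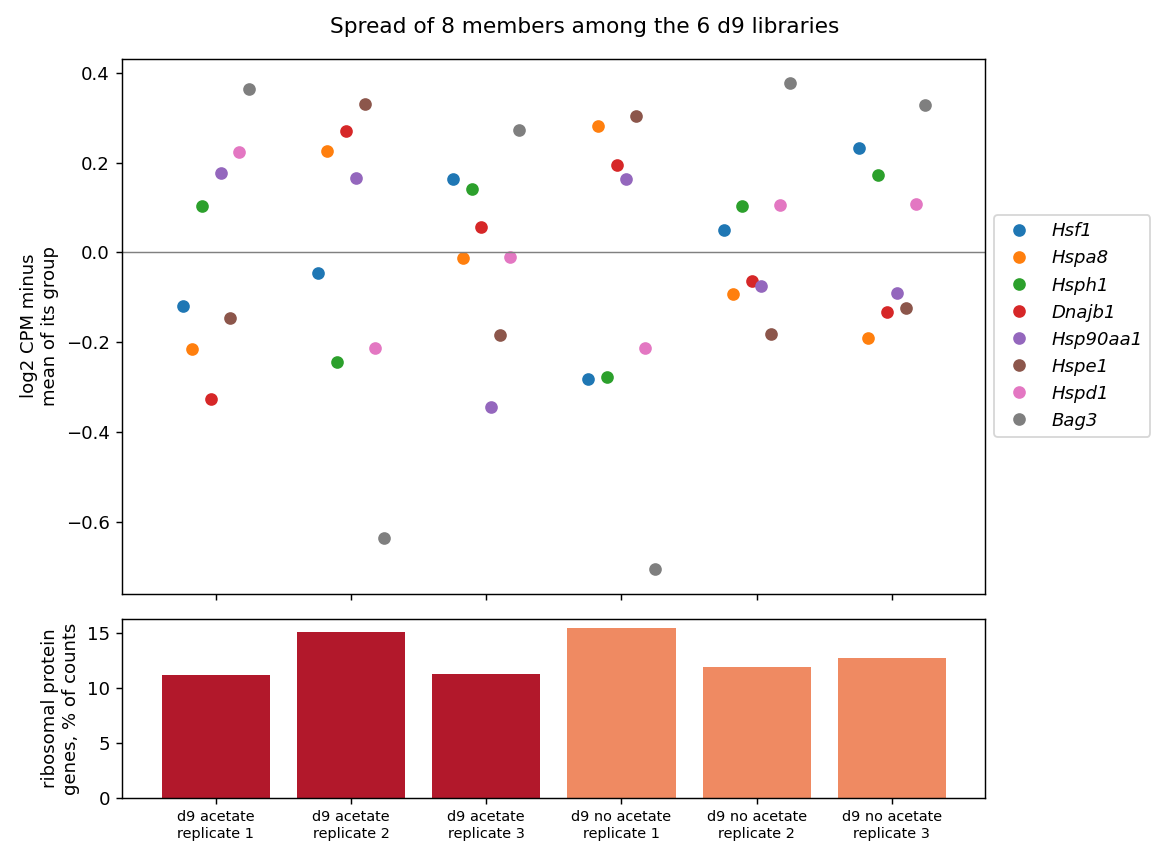
Top, log2 CPM minus the mean of its group (y axis) for 8 genes in each of the 6 d9 libraries (Hspa1a and Hspa1b left out for their low counts); bottom, percent of counts on ribosomal protein genes, as bars. In d9 acetate replicate 2 and d9 no acetate replicate 1, Hspa8, Dnajb1 and Hspe1 lie above 0 and Hsph1, Hspd1 and Bag3 below it, and ribosomal protein genes take 15.1% and 15.45% of counts.

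The other genes of the chaperone network were counted in 9 lists, which share some genes and were chosen with earlier results of these data known. Their counts stand beside the shares of all genes tested, 18.5% that rose and 23.1% that fell at d9 with acetate, and 15.9% that rose and 21.2% that fell without. The number of all genes called also changed when a library was left out, with ranges given at the end. List counts with a library left out have no such share beside them, so a lost call may not be particular to its list. In the list of heat shock factors and their regulators, 3 of 5 tested genes rose at d9 with acetate, and 3 rose and 1 fell without, shares of rises above those of all genes; with each library left out in turn 2 to 3 rose with acetate and 2 to 4 without. Ier5, an immediate early gene that activates HSF1, averaged 365.1 ± 44.5 CPM in d9 acetate and 187.3 ± 24.5 CPM in d5 acetate, and 366.6 ± 53.4 CPM in d9 no acetate and 206.6 ± 6.02 CPM in d5 no acetate (SD). Its d9 over d5 log2 difference was 0.96 ± 0.16 with acetate (edgeR adjusted p = 0.000889) and 0.83 ± 0.16 without (0.00229). Dedd2 rose by 0.64 with acetate and 0.68 without, and Hsf4 rose by 1.07 with acetate. Without acetate Hsf4 averaged 2.39 ± 0.64 CPM at d9 and 1.21 ± 0.47 CPM at d5 (SD). Hsf2, another heat shock factor, averaged 3.28 ± 0.78 CPM in d9 no acetate and 8.33 ± 0.86 CPM in d5 no acetate, a change of -1.34 ± 0.24 (edgeR adjusted p = 0.00163). It averaged 5.24 ± 0.72 CPM in d9 acetate and 6.25 ± 1.70 CPM in d5 acetate.

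In the endoplasmic reticulum list of 15 chaperones, 11 fell at d9 with acetate and 0 rose, where 23.1% of all genes fell. Without acetate 5 fell and 0 rose, a share not far from the 21.2% of all genes. Hsp90b1, the HSP90 of the compartment (GRP94), averaged 319.1 ± 39.7 CPM in d9 acetate and 1050 ± 68.4 CPM in d5 acetate, a log2 change of -1.72 ± 0.13 (edgeR adjusted p = 8.91e-06), and fell by 1.04 without acetate. The cochaperones Dnajc3 (-1.47 with acetate and -0.88 without) and Sdf2l1 (-1.17 and -0.73) fell in both comparisons. Hspa5, the HSP70 of that compartment (BiP), averaged 3194 ± 326 CPM in d9 acetate and 4556 ± 152 CPM in d5 acetate, with a change of -0.51 ± 0.13 (edgeR adjusted p = 0.0099), and 3300 ± 280 CPM in d9 no acetate and 3026 ± 57.7 CPM in d5 no acetate, with 0.12 ± 0.13. The list's median log2 difference was -0.61 with acetate and -0.13 without, against -0.01 over all genes tested in each. With each library left out in turn, 8 to 12 fell with acetate and 4 without. Without d9 acetate replicate 2 and d9 no acetate replicate 1, 11 fell with acetate (26.4% of all genes in that fit), and 6 fell and 1 rose without (25.6% and 20.4%).

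Among 20 genes of the HSP90 family and its cochaperones, 4 rose and 7 fell at d9 with acetate, and 5 rose and 6 fell without, against 18.5% and 23.1% of all genes with acetate and 15.9% and 21.2% without. With acetate the rises came to 1 when d5 acetate replicate 1 or d5 acetate replicate 2 was left out. Without acetate 2 or 3 rose with each library left out, and the falls came to 3 without d5 no acetate replicate 1 or d5 no acetate replicate 2. Chordc1, an HSP90-binding protein, fell by 1.43 with acetate and 1.13 without, and Cacybp fell by 1.09 and 0.97. Of 8 other HSP70 family genes, 3 fell with acetate and 2 without, and 0 rose in either, with 1 fall with acetate when d5 acetate replicate 1 was left out. Hspa13 changed by -1.51 with acetate and -0.96 without, and Hspa4l by -0.96 with acetate and -0.97 without. Of 27 other J-domain genes, 5 rose and 7 fell with acetate, near the shares of all genes, and 4 rose and 8 fell without. With acetate 2 rose without d5 acetate replicate 1 or d9 acetate replicate 3, and 3 without d5 acetate replicate 2. Without acetate 2 rose when any library other than d9 no acetate replicate 3 was left out, and 4 fell without d5 no acetate replicate 1, d5 no acetate replicate 2 or d9 no acetate replicate 3 and 5 without d9 no acetate replicate 2. Dnaja1 fell by 0.85 and Dnajc10 by 1.07 with acetate, and Dnajb14 fell by 1.63 and Dnajc9 by 0.80 without. Genes are named per comparison by the smallest p, and these also averaged lower at d9 in the other comparison. Without acetate Dnaja1 averaged 33.4 CPM at d9 and 44.5 CPM at d5, and Dnajc10 47.5 and 90.3 CPM. With acetate Dnajb14 averaged 1.98 CPM at d9 and 4.64 CPM at d5, and Dnajc9 56.5 and 83.3 CPM.

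In the TRiC chaperonin and prefoldin list of 15 genes, 0 rose and 4 fell with acetate and 1 rose and 3 fell without, the falls again near the shares of all genes. Without acetate 0 rose with any library left out, and 1 fell without d5 no acetate replicate 1. Vbp1, a prefoldin subunit, changed most, by -1.85 with acetate and -1.68 without. The TRiC subunits Cct8 (-0.73 and -0.43) and Tcp1 (-0.50 and -0.35) fell in both. In the mitochondrial list of 16 genes, 2 rose and 3 fell in each comparison, below the shares of all genes. With acetate 0 rose without d5 acetate replicate 1, and 1 without d5 acetate replicate 2, d9 acetate replicate 2 or d9 acetate replicate 3. Without acetate 0 rose and 1 fell without d5 no acetate replicate 2, and 1 rose without d5 no acetate replicate 1 or d9 no acetate replicate 3. The inner-membrane protease gene Yme1l1 changed by -1.89 and -1.48. Htra2 fell by 0.55 and 0.49, Trap1, the mitochondrial HSP90, fell by 0.73 with acetate, and Timm44, an anchor of the import motor, rose by 0.55 without. In the other comparison Trap1 averaged 83.0 CPM in d9 no acetate and 106.0 CPM in d5 no acetate. Timm44 averaged 114.6 CPM in d9 acetate and 118.5 CPM in d5 acetate. Of 11 nucleotide exchange factors and HSP70 cochaperones, 0 passed with acetate in edgeR and limma-voom and 2 in DESeq2 (2 at an unadjusted edgeR p under 0.05), and 0 to 2 passed with each library left out. Without acetate 1 passed in edgeR, Bag2 at 0.86, while limma-voom called 0 and DESeq2 3, and 0 passed in edgeR when any library other than d9 no acetate replicate 3 was left out. The shares of all genes that DESeq2 called in the day comparisons are not given, so its counts of 2 and 3 have no background here. Of all 13182 genes tested, 6685 had an unadjusted edgeR p under 0.05 with acetate. Bag2 averaged 19.8 ± 5.25 CPM in d9 acetate and 12.6 ± 3.43 CPM in d5 acetate (SD). Of 10 genes in the small heat shock protein list 2 were tested. Hspb11, a member of that list by gene symbol, fell by 0.65 with acetate, a call not kept with every library left out in turn. Without acetate Hspb11 averaged 9.21 ± 1.38 CPM at d9 and 8.28 ± 0.07 CPM at d5 (SD). Hspb1, the best known of that family, averaged at most 0.396 CPM in a group and was not tested.

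**Figure D4:**
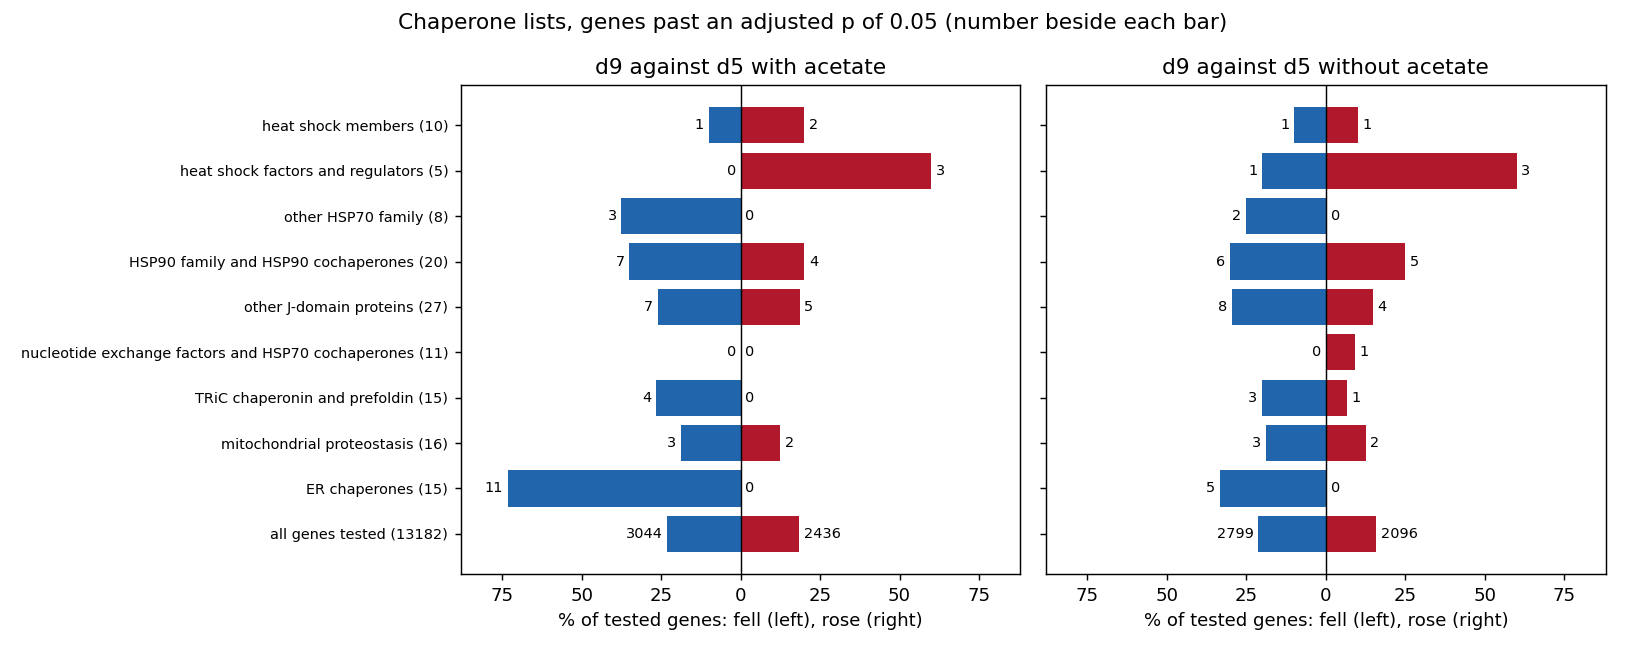
Percent of the tested genes of each list (x axis, fell to the left and rose to the right) past an adjusted p of 0.05 in edgeR, for d9 over d5 with acetate (left panel) and without acetate (right panel); the number of genes is beside each bar, the number tested follows each list's name, and the last row is all 13182 genes tested. The ER chaperones have 11 and 5 falls of 15 and no rise.

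For acetate at d5, 4 genes of these lists passed, all of them higher with acetate, where 0.66% of all genes tested were higher and 0.865% lower. Limma-voom gave the same count in each list. With the replicate number as a block, 0 genes passed in every list, so none of the 4 calls held there. DESeq2, which called 3.2% of all genes higher and 2.87% lower (6.07% in all), had 4 higher among the other HSP70 genes, 3 each in the HSP90, J-domain, TRiC and prefoldin, mitochondrial and endoplasmic reticulum lists, 1 among the exchange factors, and 1 J-domain gene lower. Cacybp, which binds HSP90 and the ubiquitin ligase component SIAH1, averaged 85.5 ± 0.80 CPM in d5 acetate and 48.9 ± 3.26 CPM in d5 no acetate (SD, n = 2 each), a log2 difference of 0.81 ± 0.13 (edgeR adjusted p = 0.0208). Timm44 averaged 118.5 ± 2.77 CPM in d5 acetate and 69.7 ± 1.52 CPM in d5 no acetate, a difference of 0.77. Hsp90b1 averaged 1050 ± 68.4 CPM in d5 acetate and 645.8 ± 11.5 CPM in d5 no acetate (0.70), and Dnaja1 68.9 ± 4.37 CPM in d5 acetate and 44.5 ± 3.06 CPM in d5 no acetate (0.63). None of these 4 calls held when 1 d5 library was left out. For acetate at d9, 0 genes of the 9 lists passed in edgeR and limma-voom. DESeq2, whose count over all genes is given below, called 0 to 2 genes a list. At an unadjusted edgeR p under 0.05 there were 1 to 6 genes a list, and 0 among the small heat shock proteins. Of all 13182 genes tested, 2026 had such a p. All 15 endoplasmic reticulum chaperones and all 15 TRiC and prefoldin genes had a positive log2 difference for acetate at d5, against 6758 of the 13182 genes tested. The comparisons of acetate at d5 and of d9 over d5 with acetate share the d5 acetate libraries.

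The pattern of the 7 cytosolic chaperone genes together (the mean of their standardised log2 CPM over the 10 libraries) was compared with 11431 protein-coding genes. These 7 genes did not share a pattern, so their mean does not stand for any of them: log2 CPM over the 10 libraries correlated at 0.78 between Hspa1a and Hspa1b and 0.69 between Hsph1 and Bag3, but at -0.73 between Hspa8 and Hsp90aa1, -0.65 between Hspa8 and Hsph1 and -0.63 between Dnajb1 and Bag3. The most alike were Fos (r = 0.94), Plod3 (0.93), Kdm2b (0.90), Wrnip1 (0.90) and Hk1 (0.89), of which Fos averaged 9.84 ± 6.38 CPM in d9 acetate, 5.34 ± 0.83 CPM in d9 no acetate, 4.80 ± 1.21 CPM in d5 acetate and 6.69 ± 1.27 CPM in d5 no acetate. Within d9 acetate Fos ranged from 4.68 to 17.0 CPM, Kdm2b from 44.2 to 113.2, Hk1 from 149.4 to 320.4, Plod3 from 29.3 to 37.6 and Wrnip1 from 68.7 to 87.4 CPM. Hspa1a and Hspa1b have 1 high library in that group, and how far these coefficients rest on it was not tested. Hspd1 and Hspe1 correlated at -0.03, and for their mean the most alike genes were Il13 (0.97), Rassf3 (0.95), Fgfbp3 (0.95), Nars (0.95) and Mllt11 (0.94). Nars, asparaginyl-tRNA synthetase, averaged 712.9 ± 21.6 CPM in d9 acetate, 622.4 ± 24.9 CPM in d9 no acetate, 759.4 ± 23.3 CPM in d5 acetate and 583.5 ± 19.0 CPM in d5 no acetate. Il13 was at 0.533 CPM or lower in every group mean. These coefficients are over 10 libraries that share depth and group, and are given as a description.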

How the data were processed

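Stranded libraries of polyadenylated RNA were sequenced. Each library has 1 deposited file of raw counts, whole numbers per gene made by the authors. The submitters' processing notes name STAR, featureCounts, deepTools, DESeq2 and GRCm38 without roles, versions, annotation or strand setting. Of 53465 gene IDs, 53360 were matched to a GENCODE annotation of GRCm38 for symbols, coordinates and exon lengths, and the 105 others took up to 0.00689% of counts.

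TMM scaling and filterByExpr (by group, 13182 genes kept) were applied in R 4.3.3. All 10 libraries entered 1 edgeR 4.0.16 quasi-likelihood fit (robust) of 4 group means, with 6 residual degrees of freedom, a biological coefficient of variation of 0.161, and Benjamini-Hochberg adjustment over all genes tested at 0.05. SE is the absolute log2 fold change over the square root of F, and intervals are 95%. Log2 CPM used a prior count of 2. CPM is on TMM-scaled library sizes.

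Alternatives were DESeq2 size factors, no filter beyond 1 count, the DESeq2 1.42.0 Wald test (no adjusted p for Hspa1a in the acetate comparisons), limma-voom (limma 3.58.1), only the groups compared, a replicate block, Hspa1a and Hspa1b summed, leaving out each library, and leaving out d9 acetate replicate 2 with d9 no acetate replicate 1. The fit was tested on simulated data with 200 changed genes. Outside the 10 genes, those named were Hsp90ab1, Hspa5, Hspa9 and Hspb1, per comparison up to 3 genes a list past the threshold with the smallest p, and the 5 genes most alike in pattern. The 10 genes and all lists were chosen with earlier results of these data known. Replicates of each group differed beyond sampling noise (chi-square per degree of freedom 5.6 to 70.3), so none were merged.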

Additional observations from a re-analysis of the deposited data

How the results depend on the processing

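Of the 50 values tested for the 10 genes (5 comparisons), 681 alternative values were computed: 621 kept their direction and side of the threshold, 8 lost a call, 12 gained one and 40, in 17 results, changed sign, none of these past the threshold. The calls of Hsp90aa1 in both day comparisons and of Hspa8 without acetate held in every alternative run. The count of the 10 genes past the threshold for acetate at d5 was 3 with only the groups compared and 4 without d9 acetate replicate 2 and d9 no acetate replicate 1; for d9 over d5 with acetate it was 5 without those 2 libraries and 1 to 3 with each library left out.

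Counts over all genes moved more. For acetate at d9 (4) they were 197 with no filter, 308 with DESeq2, 213 without the 2 libraries and 0 to 18 with each library left out. For acetate at d5 (201) they were 578 with no filter, 726 with DESeq2, 1701 with only the groups compared, 2162 without the 2 libraries and 0 to 10 with each library left out. For the difference of acetate effects (0, with 1015 at an unadjusted p under 0.05) they were 99, 95 and 255 with no filter, with DESeq2 and without the 2 libraries, and 0 to 1 with each left out. For d9 over d5 they were 3108 to 5698 with acetate (5480) and 2803 to 4763 without (4895) with each library left out, and 6658 and 5945 without the 2 libraries. The cause was not tested.

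Signs turned as follows. For d9 over d5 without acetate, Dnajb1 was 0.027 with DESeq2 size factors, 0.047 with no filter and 0.033 with the DESeq2 test, and Hspa1a was -0.11 when summed with Hspa1b. Without the 2 libraries, Hsf1 for acetate at d9 was -0.05, and Dnajb1 and Hspe1 for d9 over d5 with acetate were -0.11 and -0.15. Dnajb1 for d9 over d5 without acetate kept its sign in that fit, at -0.128 against -0.003 with all libraries. With each library left out, acetate at d9 ranged from -0.088 to 0.15 for Hsf1, -0.47 to 1.99 for Hspa1b, -0.078 to 0.20 for Dnajb1, -0.005 to 0.23 for Hsp90aa1, -0.093 to 0.25 for Hspe1 and -0.39 to 0.15 for Bag3, and acetate at d5 from -1.54 to 0.45 for Hspa1b and -0.042 to 0.057 for Dnajb1. d9 over d5 with acetate ranged from -0.10 to 2.36 for Hspa1b, -0.021 to 0.22 for Hsph1, -0.072 to 0.18 for Dnajb1 and -0.12 to 0.19 for Hspe1, and without acetate from -1.16 to 0.83 for Hspa1b, -0.087 to 0.062 for Dnajb1 and -0.11 to 0.15 for Hspd1. The difference of acetate effects ranged from -0.086 to 0.19 for Dnajb1.

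Replicate numbers were not taken to pair the samples: same-numbered d9 acetate and d9 no acetate libraries correlated at -0.14, -0.39 and 0.33, and the d5 pairs at 0.029. Across days the same-numbered pairs were at 0.16 and 0.22 with acetate and at 0.16 and 0.11 without, only 2 pairs in each comparison. A replicate block gave 62 genes past the threshold for acetate at d5, against 201, and 2 of the 10 genes for d9 over d5 with acetate, where Hspa8 was 0.59 (edgeR adjusted p = 0.0518). With the block Hsph1 was -0.010 with acetate, and Dnajb1 0.020 and Hspd1 -0.008 without. Hspa1a and Hspa1b had 2 to 81 counts a library, so depth limits them most. Leaving out a d5 library leaves 1 sample, assumed to vary like the other groups.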
